A study of Mus musculus with 12 samples.

Results

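The comparison set the 6 arrays of mice on a high-fat diet against the 6 arrays of mice on a normal diet, with the genotype as a covariate, and used all 12 arrays of the series. The mice were C57BL6 and were either wild type (WT) or lacked Sgpp2 (KO), the gene of sphingosine-1-phosphate phosphatase 2, an endoplasmic reticulum enzyme that dephosphorylates sphingosine-1-phosphate, a lipid with receptors on the cell surface. There were 4 groups, namely WT on normal diet, KO on normal diet, WT on high-fat diet and KO on high-fat diet, of 3 arrays each. Total RNA was read on the Affymetrix whole-genome expression array for mouse. The title of the series names pancreatic islets; the sample labels name no tissue and give no age, sex, diet composition or time on diet, nor whether an array held 1 animal or a pool. They do not say how the knockout was made or how it was controlled.

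A high-fat diet raises the demand for insulin. In mice the β-cells of the islets are known to answer with more secretion, and over weeks to months with growth in cell number, for which they must pass through DNA replication and mitosis. Protein folding in the endoplasmic reticulum, lipid synthesis and oxidation, and the Reg proteins, a family of secreted C-type lectins that pancreatic tissue makes after injury and in inflammation, are other systems often followed in such tissue. The lists of genes described here were chosen around these systems, with earlier results of these data known.

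All values are log2 RMA values, in which background correction, quantile normalization and the summary over the probes of a set have been done, so that a difference of 1 stands for a 2-fold change. Array medians lay between 7.00 and 7.13, and pairs of arrays of the same group correlated across probe sets with r between 0.9939 and 0.9962. Markers of the endocrine and the exocrine pancreas were both present: the median level was 14.27 over 10 islet hormone genes and 13.97 over 13 genes of acinar cells, mostly digestive enzymes. Sgpp2 itself lay between 11.46 and 11.63 on the WT arrays and between 11.00 and 11.17 on the KO arrays, and the position of its probe set relative to the deleted part is unknown here. A principal component analysis placed 27.1% of the variance on a first component and 20.3% on a second, on which the normal-diet arrays all lay at or above 5.64 and the high-fat arrays at or below -1.12. The 3′ minus 5′ signal of the control gene Actb ranged from 2.27 to 2.49 on the normal diet and from 2.17 to 2.46 under high fat, and that of Gapdh from 1.10 to 1.23 and from 1.08 to 1.71. Its part in the results was not tested. The source labels carry running numbers, 1 to 6 for the normal-diet and 7 to 12 for the high-fat samples, so a difference that followed this order and a difference by diet cannot be told apart.

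In the fit with genotype as a covariate, few genes differed between the diets past the threshold, most of them by less than 2-fold. Of 15237 genes tested, 23 (0.151%) had an adjusted p below 0.05, 13 higher (0.0853%) and 10 lower (0.0656%) on the high-fat diet, by limma's moderated test with Benjamini-Hochberg adjustment. Their median change was 0.65 on the log2 scale, and 3 of them, Slc10a6, Crhbp and Rasgrp1, changed by more than 2-fold. All 23 differed the same way in WT and in KO, against 59.9% of all genes tested. In 22 of them the arrays of the 2 diets did not overlap within either genotype, against 2.03% of all genes; the exception was Inhbb, in KO. In 18 the 6 high-fat arrays lay entirely on 1 side of the 6 normal-diet arrays, against 0.958% of all genes. Genes that pass on the average of both genotypes are prone to such agreement through their choice, so these counts only describe them. With the 23 included, 2039 genes (13.4%) had an unadjusted p below 0.05, where on average 762 would have it if no gene differed, and 87 had an adjusted p below 0.1. Genes vary together from array to array, which makes such a count uncertain, so the excess cannot be read as a number of changed genes.

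The number of genes past the threshold rested on individual arrays. Without WT normal array 1, 1 gene passed, which was among the 23. Without WT normal array 3 the count was 8 and without KO high-fat array 3 it was 9, all of them among the 23. Without WT high-fat array 2 it was 11 (10 of the 23), without KO normal array 1 it was 14 (11 of the 23) and without WT high-fat array 3 it was 15 (12 of the 23). Without KO high-fat array 1 it was 78, with all 23 among them. Same-numbered KO arrays of the 2 diets deviated together, and when the KO pairs entered as a random block 96 genes passed, 47 higher and 49 lower, among them all 23. With the pairs as a fixed block 19 genes passed, of which 13 were among the 23. Both blocks were chosen after seeing the data. Of the planned blocks on the replicate number, the fixed ones, overall and within genotype, gave 0 genes and the random one within genotype gave 99. Without both WT high-fat array 2 and KO high-fat array 3, also chosen after seeing the data, 0 passed. Cxcl14 was the only gene that passed in all 12 fits with 1 array left out, but its high-fat values all lay below 5, the level needed for testing. Klra2, Tesc, Slc10a6, Rhoj, Klhl13 and Hecw1 passed in 11 of the 12.

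Among the genes that rose, the largest change was in Slc10a6, which encodes a sodium-dependent transporter of sulfated steroids. Its lowest, median and highest log2 values were 4.22, 4.79 and 5.20 on the normal diet and 5.51, 5.93 and 6.09 on the high-fat diet. The diets did not overlap, and the difference was 1.13 (SE 0.15, adjusted p = 0.0182), or 2.19-fold on the scale of these values. The probe set was dim: its normal-diet median lay below 5, the level a gene had to exceed on at least 3 arrays to be tested, and whether its normal-diet signal was above background was not determined. Crhbp, the binding protein of corticotropin-releasing hormone, went from 6.31, 6.80 and 7.25 to 7.57, 7.89 and 8.05. The normal-diet values were the more scattered, and the difference was 1.08 (SE 0.17, adjusted p = 0.0326), a 2.12-fold rise. Hecw1, a HECT-type ubiquitin ligase, rose from 7.07, 7.53 and 7.66 to 8.11, 8.32 and 8.73, which is 0.92 (SE 0.13, adjusted p = 0.0189). Its second probe set, dimmer at a mean of 5.07, differed by -0.01.

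Several of the risen genes belong to signalling systems. Inhbb, the βB subunit of activins and inhibins, which are secreted ligands of the TGF-β family, rose from 7.30, 7.40 and 7.97 to 7.96, 8.12 and 8.35 (0.65, SE 0.10, adjusted p = 0.0309). The diets met in KO, where normal-diet array 1 read 7.97 and high-fat array 2 read 7.96. The dimmer probe set of Inhbb, with a mean of 5.22, differed by 0.07. Irak3, a kinase-like protein that dampens Toll-like receptor signalling, rose from 7.76, 7.85 and 8.18 to 8.31, 8.42 and 8.61 (0.52, SE 0.08, adjusted p = 0.0326). Its dimmer probe set, with a mean of 5.39, differed by 0.12. Klra2, a lectin-like receptor of the Ly49 family, went from 5.31, 5.45 and 5.69 to 5.86, 6.00 and 6.19 (0.57, SE 0.07, adjusted p = 0.0182). Inpp4b, a phosphoinositide 4-phosphatase, rose by 0.48 (SE 0.08, adjusted p = 0.0351). Rhoj, a GTPase known from endothelial cells, had the smallest standard error of the group and rose by 0.39 (SE 0.05, adjusted p = 0.0182). Of the 23 genes, 4 also passed the threshold for genotype averaged over the diets, as did 7.98% of all genes. All 4 were lower in KO than in WT: the log2 difference was -0.40 for Inpp4b (adjusted p = 0.016), -0.35 for Rhoj (adjusted p = 0.00532), -0.25 for Gpr162 (adjusted p = 0.0277) and -0.25 for Jph4 (adjusted p = 0.0413).

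The remaining risen genes come mostly from multicopy families whose near-identical copies the probes may not separate. Orly, a transcript of a multicopy locus on the Y chromosome, read 8.46, 9.22 and 9.30 on the normal diet and 9.72, 10.07 and 10.58 on the high-fat diet, a rise of 0.98 (SE 0.15, adjusted p = 0.0276) that its other probe set gave as 1.02. KO normal array 3 was its lowest value, below the next by 0.72. Obox3, an oocyte-type homeobox gene, rose by 0.73 (SE 0.11, adjusted p = 0.0326). Pramel34, of the PRAME-like family, rose by 0.65 (SE 0.10, adjusted p = 0.0309). Fbxw14, of a clustered F-box family, rose by 0.55 (SE 0.09, adjusted p = 0.0461), and the predicted gene Gm13238 rose by 0.67 (SE 0.09, adjusted p = 0.0182). Pramel34 and Fbxw14 had means below 6, as had 6 of the 23 genes, near the lower end of the scale where RMA values understate a change. Their means, 5.17 and 5.05, were close to 5, the level needed for testing. They may therefore have met the filter mainly through their high-fat arrays. Whether their normal-diet signal was above background was not determined.

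**Figure D1:**
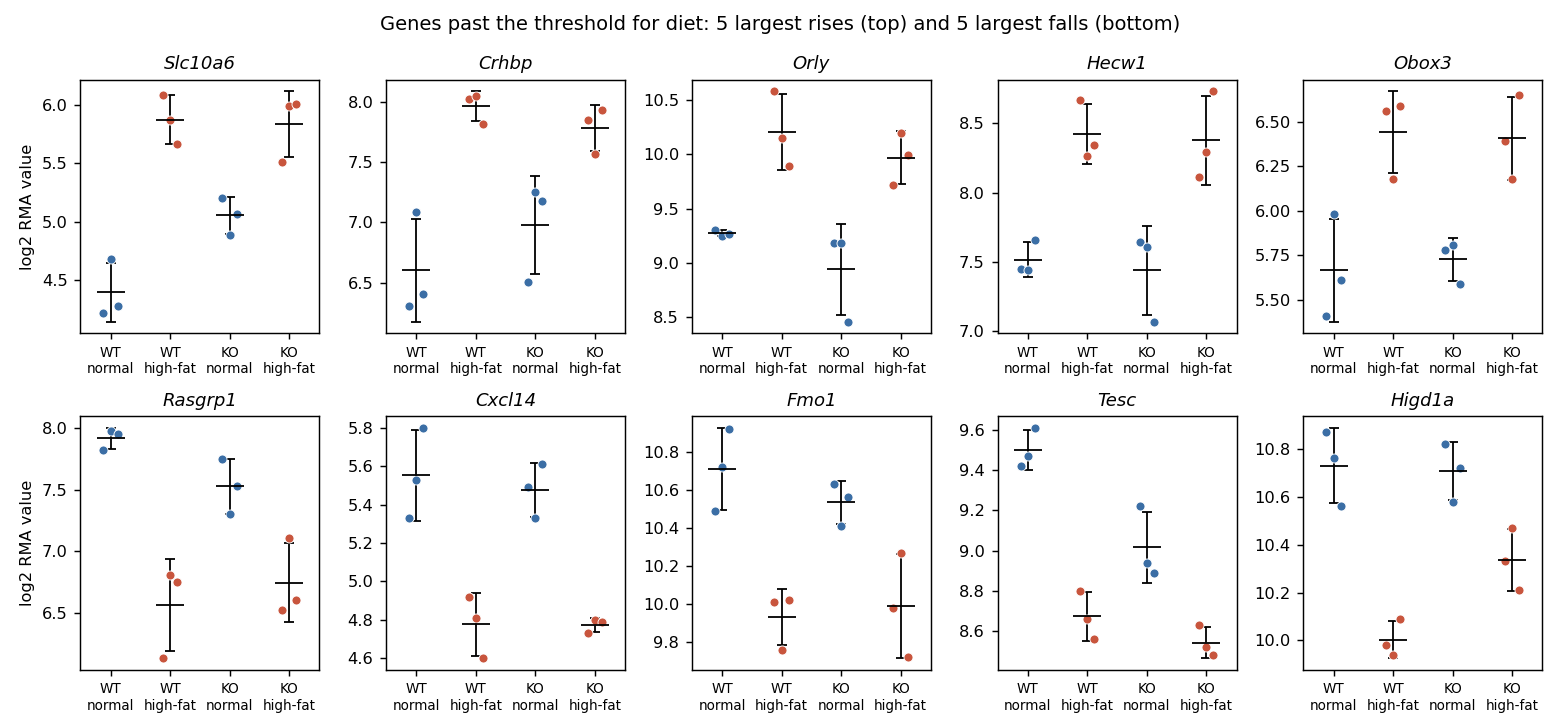
Log2 RMA values (vertical axes, each on its own scale) of named genes past the threshold, the 5 that rose most (top) and the 5 that fell most (bottom), by group on the horizontal axis. Points are arrays (blue normal diet, red high-fat diet) and black lines are the mean ± SD of 3 arrays. Slc10a6 lies between 4.22 and 5.20 on the normal diet and between 5.51 and 6.09 on the high-fat diet, and none of these 10 genes overlaps between diets within a genotype.

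Rasgrp1, a guanine nucleotide exchange factor that activates Ras downstream of calcium and diacylglycerol, showed the largest fall past the threshold. It read 7.30, 7.78 and 7.98 on the normal diet and 6.13, 6.67 and 7.11 on the high-fat diet, and fell by 1.07 on the log2 scale (SE 0.16, adjusted p = 0.0276), a 2.10-fold change. Its dimmer probe set, with a mean of 5.08, differed by -0.18. Cxcl14, a chemokine, had the smallest p of all genes: it read 5.33, 5.51 and 5.80 on the normal diet against 4.60, 4.80 and 4.92 on the high-fat diet. It fell by 0.74 on the log2 scale (SE 0.09, adjusted p = 0.0182), though from a level close to the lower end. All its high-fat values lay below 5, so it met the filter through its normal-diet arrays alone. Whether its high-fat signal was above background was not determined. Tesc, the calcium-binding protein tescalcin, fell from 8.89, 9.32 and 9.61 to 8.48, 8.59 and 8.80 (-0.65, SE 0.09, adjusted p = 0.0182). Its other probe set gave -0.56.

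Of the brighter genes that fell, Fmo1, a flavin-containing monooxygenase, read 10.41, 10.60 and 10.92 on the normal diet and 9.72, 10.00 and 10.27 under high fat (-0.66, SE 0.11, adjusted p = 0.0335). Higd1a, a hypoxia-inducible protein of the inner mitochondrial membrane, went from 10.56, 10.74 and 10.87 to 9.94, 10.15 and 10.47 (-0.55, SE 0.09, adjusted p = 0.0326), and its 2 further probe sets gave -0.43 and -0.35. Klhl13, a substrate adaptor of the cullin 3 ubiquitin ligase, was the brightest of the 23 and fell from 11.61, 11.79 and 11.83 to 11.08, 11.21 and 11.41 (-0.51, SE 0.07, adjusted p = 0.0182). Its second probe set, at a mean of 7.8, differed by only -0.10. The imprinted gene Mest, expressed from the paternal allele, fell by 0.35 on the log2 scale (SE 0.05, adjusted p = 0.0254), with normal-diet values between 10.37 and 10.49 and high-fat values between 9.94 and 10.24. Cradd, a death-domain adaptor protein, fell by 0.35 (SE 0.06, adjusted p = 0.0336). Jph4, a junctophilin that ties the endoplasmic reticulum to the plasma membrane, fell by 0.42 (SE 0.07, adjusted p = 0.0326). The orphan receptor gene Gpr162, unlike these a dim one at a mean of 5.15, fell by 0.37 (SE 0.06, adjusted p = 0.0326). Whether its high-fat signal was above background was not determined. In the 8 of the 23 genes with more than 1 probe set, another probe set had an unadjusted p below 0.05 with the same sign in 3 (Higd1a, Orly and Tesc) and with the opposite sign in 0.

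The diet was also read within each genotype, from a fit with 1 coefficient per group. In WT 12 genes (0.0788%) passed, 3 higher and 9 lower, and 1695 had an unadjusted p below 0.05. Leaving out 1 array took the count in WT to 0 for each of WT high-fat arrays 1 and 2, WT normal arrays 1 and 3, and KO normal arrays 2 and 3. It was 2 without WT normal array 2 or WT high-fat array 3 and 6 without KO high-fat array 1, and it was 5 with the KO pairs as a random block. In KO 0 genes passed, the smallest adjusted p being 0.306, and 1173 had an unadjusted p below 0.05; 10 passed with the KO pairs as a random block. These counts do not show that the genotypes differed: the interaction, which tests that difference, had 0 genes past the threshold, a smallest adjusted p of 0.722 and 758 genes (4.97%) with an unadjusted p below 0.05. Of the 23 genes, 4 were also past the threshold in WT, namely Slc10a6, Tesc, Rasgrp1 and Higd1a. In 3 of the 23 the interaction had an unadjusted p below 0.05. Slc10a6 rose by 1.48 in WT and differed by 0.78 in KO (adjusted p of the interaction 0.898). Tesc differed by -0.83 and -0.47 (adjusted p of the interaction 0.957), and Higd1a by -0.73 and -0.37 (adjusted p of the interaction 0.946). The change was the larger in WT for 13 of the 23, against 54.7% of all genes. Across all 15237 genes, which are not independent of each other, the diet difference in WT and that in KO, which share no array, had a Pearson correlation of 0.418 and a Spearman correlation of 0.304.

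**Figure D2:**
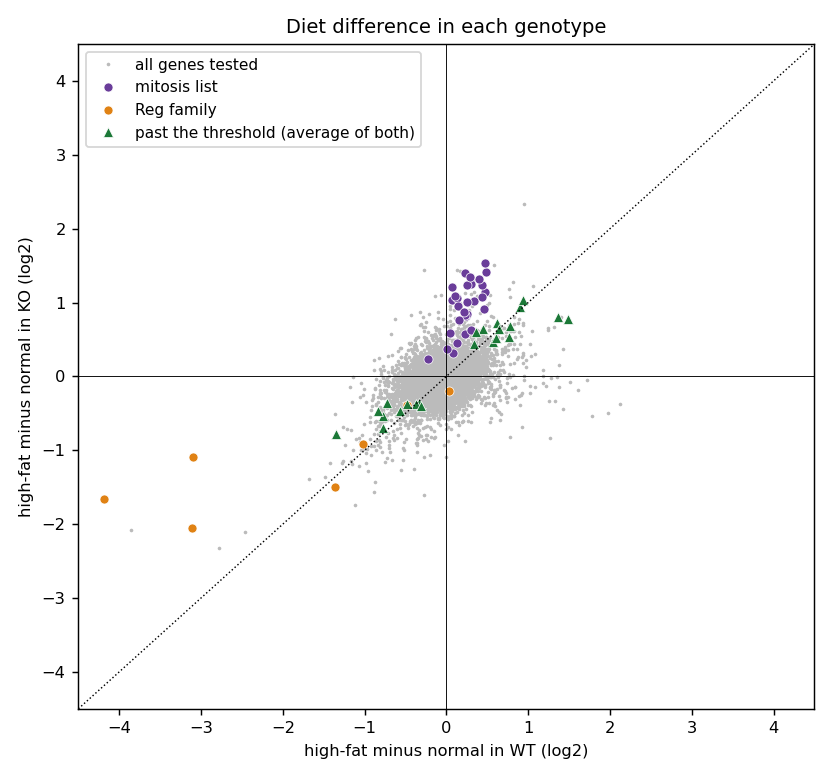
High-fat minus normal diet in WT (horizontal, log2) against the same difference in KO (vertical, log2), 1 point per gene tested; the dotted line marks equal differences. Green triangles are the 23 genes past the threshold, all at the lower left or the upper right; orange points are the Reg family, with Reg2 at -4.19 in WT and -1.66 in KO; purple points are the mitosis list, whose median is 0.238 in WT and 1.018 in KO.

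None of the 633 measured genes of the 28 functional lists was past the threshold, and 109 of them (17.2%) had an unadjusted p below 0.05, against 13.4% of all genes. Because the lists were chosen with earlier results of these data known, this share and those of single lists only describe them. The list with the largest median difference was the Reg family. Of its genes, 6 lie on chromosome 6 and Reg4 lies on chromosome 3. The 250 bases before the start of 3 of them are printed to show the TATA box motif that these 3 share: RefSeq sequence, build GRCm38.p6, 5′ to 3′ on the strand of the gene, with TATAAA in capitals. They are Reg1 at chr6:78425733-78425982 (plus strand), Reg2 at chr6:78404905-78405154 (plus strand) and Reg3b at chr6:78370635-78370884 (plus strand).
Reg1: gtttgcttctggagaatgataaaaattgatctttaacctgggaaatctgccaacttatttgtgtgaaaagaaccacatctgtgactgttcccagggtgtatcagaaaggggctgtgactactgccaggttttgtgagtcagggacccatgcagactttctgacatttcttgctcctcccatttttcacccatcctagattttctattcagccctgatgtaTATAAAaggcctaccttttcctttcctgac
Reg2: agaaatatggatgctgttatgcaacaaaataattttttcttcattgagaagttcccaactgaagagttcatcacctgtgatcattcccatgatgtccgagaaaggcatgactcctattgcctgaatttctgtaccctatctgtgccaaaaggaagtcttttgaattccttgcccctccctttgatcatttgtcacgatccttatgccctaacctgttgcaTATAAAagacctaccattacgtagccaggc
Reg3b: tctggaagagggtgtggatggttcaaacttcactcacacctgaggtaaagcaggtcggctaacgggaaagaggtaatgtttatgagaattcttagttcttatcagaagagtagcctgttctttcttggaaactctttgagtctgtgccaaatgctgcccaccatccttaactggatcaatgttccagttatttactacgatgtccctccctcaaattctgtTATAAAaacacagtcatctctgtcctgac
The motif begins 30, 30 and 29 bases before the start of these genes, at -30, -30 and -29. Searched on both strands, TATAAA was found before 4 of the 7 Reg starts (57.1%), against 12.4% of all 32851 starts in the table. TTTGAA was found before 5 of the 7 (71.4%, against 16.0%) and CCAAT before 2 (28.6%, against 33.8%). The choice of motifs was made with the values known, and a match is a description of the letters only.

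All 7 Reg genes had a negative difference, as had 55.2% of all genes, and the median was -1.43; 0 of them was past the threshold. Of the 7, 5 had an unadjusted p below 0.05 in the downward direction, against 7.95% of all genes, and 3 did not overlap between diets within either genotype with lower values on high fat, against 1.14%. Reg2 had the largest difference. Its WT arrays read 12.74, 12.04 and 13.97 on the normal diet and 9.25, 8.12 and 8.83 on the high-fat diet, and its KO arrays 13.37, 12.64 and 11.19 against 11.69, 10.09 and 10.44. The WT groups lay far apart, while in KO the highest high-fat value was above the lowest normal-diet value. The averaged difference was -2.92 (SE 0.56, adjusted p = 0.0676). It was -4.19 in WT (adjusted p = 0.0444), an 18.2-fold change, and -1.66 in KO (adjusted p = 0.562), and the adjusted p of the interaction was 0.922. The call in WT was lost, as all calls in WT were, without any of the arrays whose omission left 0 genes there.

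Reg3a read 6.69, 8.03 and 10.47 on the normal diet, over a wide range, and 5.21, 5.64 and 6.10 on the high-fat diet, close to the lower end. The diets did not overlap and the difference was -2.58 (SE 0.55, adjusted p = 0.0997). Reg3b, which like Reg3g encodes an antibacterial lectin, read 9.08, 10.66 and 12.58 against 7.18, 8.67 and 9.74 (-2.10, SE 0.60, adjusted p = 0.173), and its second probe set gave -2.31. Reg3d read 10.69, 11.36 and 12.22 against 9.27, 10.12 and 10.37, with no overlap (-1.43, SE 0.26, adjusted p = 0.0591). Reg1 stood between 13.97 and 14.38 on the normal diet and between 13.39 and 13.95 under high fat (-0.44, SE 0.08, adjusted p = 0.0676). Reg3g differed by -0.96 (SE 0.48, adjusted p = 0.416) and Reg4, dim and scattered around 5, by -0.08 (SE 0.11, adjusted p = 0.804). The members are close in sequence, so their probe sets may share signal.

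The list's median stayed between -1.61 and -1.31 when any 1 array was left out, and 4 of its genes, Reg1, Reg2, Reg3a and Reg3d, passed the threshold with the KO pairs as a random block (smallest adjusted p = 0.029), against 0 with the pairs as a fixed block (smallest adjusted p = 0.0605). The normal-diet arrays differed among themselves: the mean deviation over the 7 genes was 1.67 on WT normal array 3 and 1.61 on KO normal array 1 but -0.24 on KO normal array 3. On the high-fat diet it ran from -1.45 to -0.19. Reg genes are strongly expressed by acinar cells. Over the 13 measured acinar markers 12 were lower on the high-fat diet, with a median of -0.12, and their mean deviation lay between -0.21 and 0.30 on the normal diet and between -0.36 and 0.12 under high fat. The acinar values overlapped between the diets, and their part in the Reg differences was not tested. In bulk RNA fewer cells of a type and less RNA per cell cannot be told apart.

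**Figure D3:**
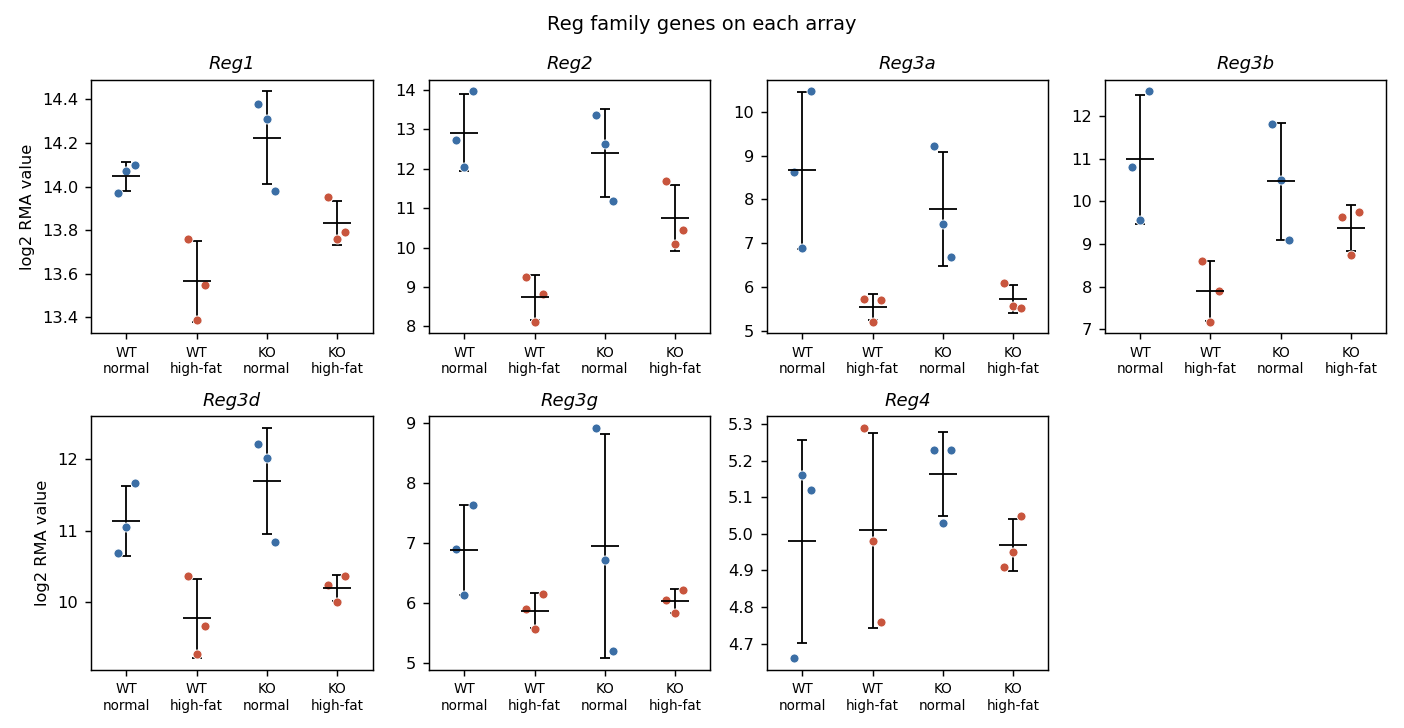
Log2 RMA values (vertical axes, each on its own scale) of the 7 Reg family genes in the 4 groups (horizontal axis). Points are arrays (blue normal diet, red high-fat diet) and black lines are the mean ± SD of 3 arrays. Reg2 in WT falls from between 12.04 and 13.97 to between 8.12 and 9.25, and Reg3a, Reg3d and Reg1 do not overlap between diets within either genotype.

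The mitosis list differed in the other direction: its 30 measured genes, of 31 in the list, all had a positive difference on the high-fat diet (29 after cyclic loess scaling, with the mean of probe sets, in the WT arrays alone, without both WT high-fat array 2 and KO high-fat array 3, and in 7 of the 12 fits with 1 array left out), with a median of 0.60, where 44.8% of all genes were higher. These are kinases, motor proteins and checkpoint and kinetochore proteins that are made in the G2 and M phases. None was past the threshold, the smallest adjusted p being 0.156, 19 had an unadjusted p below 0.05 in the upward direction (5.43% of all genes did), and in 0 of them did the diets separate within both genotypes (0.893% of all genes). Counted in either direction, the 19 became 0 in the WT arrays alone and 25 in the KO arrays alone. They ran from 10 without KO normal array 1 to 28 without WT normal array 1, and were 8 without both WT high-fat array 2 and KO high-fat array 3. Racgap1 had the smallest difference of the list, 0.00, and with the mean of probe sets the list's median was 0.46. The 250 bases before the start of Cdc20 (chr4:118437344-118437593, minus strand) and Cdca8 (chr4:124936918-124937167, minus strand) are printed to show the CCAAT boxes and the TTTGAA element that promoters of genes of late cell cycle phases often carry. They are RefSeq sequence of GRCm38.p6, 5′ to 3′ on the strand of the gene, and CCAAT, its reverse complement ATTGG and TTTGAA are in capitals.
Cdc20: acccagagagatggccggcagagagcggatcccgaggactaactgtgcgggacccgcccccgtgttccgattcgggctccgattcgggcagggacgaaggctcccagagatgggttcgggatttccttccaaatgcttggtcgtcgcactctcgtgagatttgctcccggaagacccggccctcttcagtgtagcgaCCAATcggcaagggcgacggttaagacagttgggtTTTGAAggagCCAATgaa
Cdca8: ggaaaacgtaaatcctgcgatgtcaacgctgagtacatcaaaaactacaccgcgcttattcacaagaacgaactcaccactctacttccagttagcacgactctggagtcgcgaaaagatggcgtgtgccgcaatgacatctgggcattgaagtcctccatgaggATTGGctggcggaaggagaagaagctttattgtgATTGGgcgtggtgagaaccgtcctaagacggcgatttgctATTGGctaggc
Of the 30 genes, 25 matched the table, with 26 starts. CCAAT was found on either strand before 22 of these starts (84.6%), against 33.8% of all starts, and TTTGAA before 9 (34.6%, against 16.0%). TATAAA was found before 0 of the 26, against 12.4%. Before the 25 starts of the DNA replication list CCAAT was found in 60.0% and TTTGAA in 8.0%. Both motifs were likewise picked with the values known.

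Cdc20, the activator of the anaphase-promoting complex, read 8.58, 7.18 and 7.52 on the WT normal arrays and 6.98, 7.30 and 7.59 on the KO normal arrays. On the high-fat diet it read 8.41, 8.30 and 8.04 in WT and 8.14, 8.59 and 9.39 in KO. Only WT normal array 1 reached the high-fat values, and the difference was 0.95 (SE 0.28, adjusted p = 0.181). Tpx2, a spindle assembly factor that activates Aurora A, read 7.84, 8.06 and 8.93 on the normal diet and 8.52, 9.01 and 10.64 on the high-fat diet, the last value being KO high-fat array 3 (1.00, SE 0.32, adjusted p = 0.216). Cenpe, a kinetochore motor, differed by 0.69 (SE 0.18, adjusted p = 0.156), Cdca8, the chromosomal passenger protein borealin, by 0.68 (SE 0.22, adjusted p = 0.216), and Kif20a, a kinesin of cytokinesis, by 0.40 (SE 0.11, adjusted p = 0.156). Further probe sets gave 0.11 and 0.73 for Cdca8, 0.74 for Cenpe, 0.66 for Tpx2, and 0.67 and 0.44 for Cdc20.

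The mitosis genes were high or low together from array to array. Their mean deviation was 0.45 on WT normal array 1 and between -0.59 and -0.35 on the other normal-diet arrays. On the high-fat diet it was 1.24 on KO high-fat array 3 and between -0.07 and 0.37 on the others. The median difference was 0.24 in WT and 1.02 in KO. It was 0.35 with KO high-fat array 3 left out, 0.78 with WT normal array 1 left out, and 0.33 without both WT high-fat array 2 and KO high-fat array 3, the arrays that stood apart from their groups on the first component.

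The DNA replication list had members in both directions. Of its 26 measured genes 9 were higher and 17 lower on the high-fat diet, the median was -0.01, and it was -0.23 in WT and 0.17 in KO. WT normal array 1 was the highest of all arrays for this list as well, at a mean deviation of 0.46, and without it the median was 0.09. Mcm4, a subunit of the replicative helicase, differed by -0.27 (SE 0.08, adjusted p = 0.18), and Tyms, thymidylate synthase, by 0.16 (SE 0.08, adjusted p = 0.411). Among the 18 cyclins and CDK inhibitors of the G1 phase, 12 were higher and the median was 0.02. Cdkn1a, the inhibitor p21, read 10.02, 10.51 and 10.73 on the normal diet and 10.75, 11.09 and 11.32 on the high-fat diet, with no overlap (0.58, SE 0.11, adjusted p = 0.0682). Cdkn1c, the imprinted inhibitor p57, differed by -0.40 (SE 0.10, adjusted p = 0.132), and Cdkn2c, the inhibitor p18, by 0.31 (SE 0.13, adjusted p = 0.321). The inhibitors thus differed in opposite directions.

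**Figure D4:**
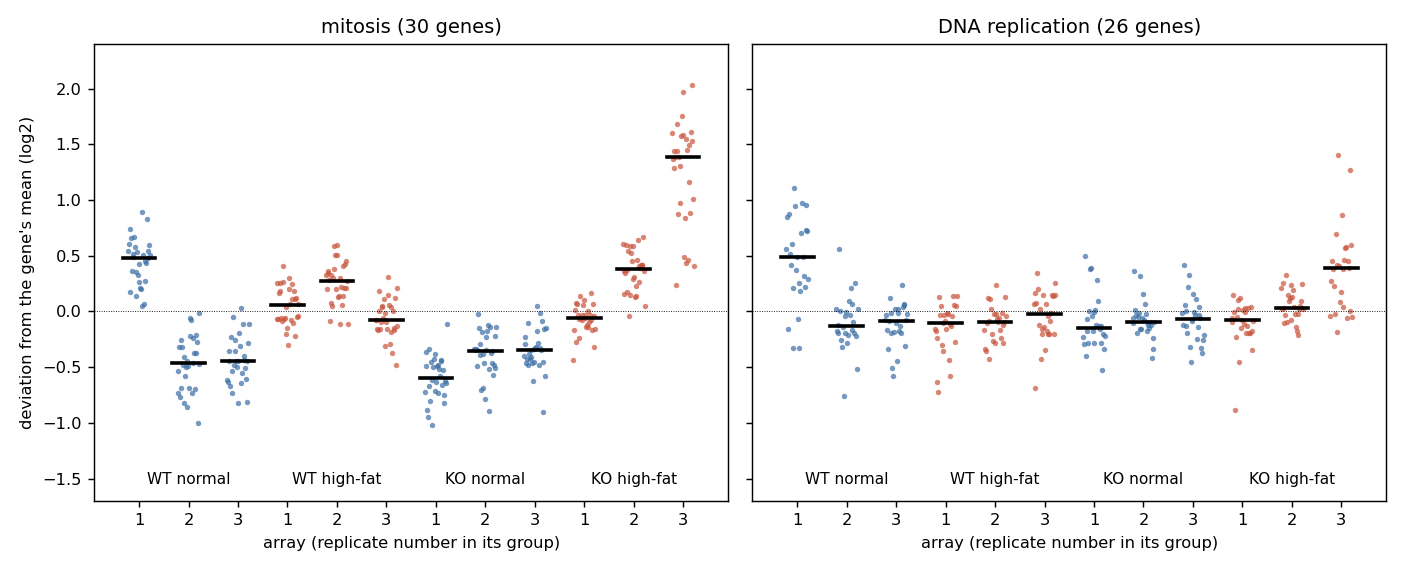
Deviation of each gene from its own mean over the 12 arrays (vertical axis, log2) for the mitosis list (left, 30 genes) and the DNA replication list (right, 26 genes), by array. Points are genes (blue normal diet, red high-fat diet) and black lines their median on that array. KO high-fat array 3 and WT normal array 1 stand highest of their diets in both panels, and the remaining high-fat arrays lie above the remaining normal-diet arrays for mitosis but not for DNA replication.

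The lipid lists had members in both directions. Of 21 genes of fatty acid synthesis and desaturation 7 were higher and 14 lower, with a median of -0.05. Scd1, the stearoyl-CoA desaturase, read 10.84, 11.20 and 11.52 on the normal diet and 10.23, 10.70 and 10.73 on the high-fat diet, with no overlap (-0.65, SE 0.15, adjusted p = 0.113). Fads2, the desaturase of polyunsaturated fatty acids, read between 9.70 and 10.01 against between 8.90 and 9.67 (-0.50, SE 0.11, adjusted p = 0.0984). Acacb, the acetyl-CoA carboxylase that controls entry into oxidation, differed by -0.45 (SE 0.13, adjusted p = 0.18). Lpin1, a phosphatidate phosphatase, differed the other way, from 11.58, 11.71 and 11.83 to 11.89, 11.99 and 12.24 (0.31, SE 0.06, adjusted p = 0.0676). In the oxidation list 14 of 27 genes were higher and the median was 0.002, but Ppargc1a, the coactivator PGC-1α, read 7.26, 7.96 and 8.31 on the normal diet and 8.52, 8.72 and 9.23 on the high-fat diet, without overlap (0.94, SE 0.18, adjusted p = 0.0686). Cholesterol genes were higher in 13 of 20, with a median of 0.05 and Lss, lanosterol synthase, at 0.26 (SE 0.11, adjusted p = 0.322).

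For the endoplasmic reticulum, 15 of 22 genes of the unfolded protein response were higher, with a median of 0.06, and 20 of the 22 were higher in WT (44.6% of all genes were) and 12 in KO (48.1%). Trib3, a pseudokinase induced by this response and by amino acid shortage, read 8.23, 8.46 and 8.96 against 8.69, 9.38 and 9.69, and the diets overlapped (0.77, SE 0.19, adjusted p = 0.132). Chac1, which breaks down glutathione, differed by 0.56 (SE 0.17, adjusted p = 0.198) and Eif2ak3, the sensor kinase PERK, by 0.27 (SE 0.10, adjusted p = 0.257). In the degradation list Herpud1 differed by 0.34 (SE 0.08, adjusted p = 0.124) while the median of 16 genes was 0.01. Chaperones and folding enzymes were higher in 16 of 25 genes (21 in WT, 13 in KO), with a median of 0.04. Of the 25, 0 had an unadjusted p below 0.05, and the largest difference was that of the cochaperone Sdf2l1, 0.29 (SE 0.13, adjusted p = 0.378). Transport between the endoplasmic reticulum and the Golgi had 37 of 50 genes higher and a median of 0.04, with the cargo receptor Tmed2 at 0.27 (SE 0.08, adjusted p = 0.177). In WT 41 of the 50 were higher (median 0.06) and in KO 25 (median 0.0). Amino acid and one-carbon metabolism had the second highest median of the functional lists, 0.10, with 16 of 25 genes higher. Within it Phgdh, which opens serine synthesis, read 11.59, 11.94 and 12.13 against 12.14, 12.31 and 12.61 without overlap (0.44, SE 0.11, adjusted p = 0.132). Psph, which ends serine synthesis, differed by 0.32 (SE 0.10, adjusted p = 0.184), and Mthfd2, a mitochondrial folate enzyme, by 0.28 (SE 0.10, adjusted p = 0.239).

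Among the identity and secretion genes of the islet 0 passed the threshold. The median difference over 10 islet hormone genes was 0.01, with a range from -0.05 to 0.32 whose upper end is Nts (neurotensin, SE 0.10, adjusted p = 0.216). Of 17 β-cell transcription factors 13 were lower, with a median of -0.04. Mnx1, which sets β-cell fate, differed by -0.32 (SE 0.10, adjusted p = 0.183) and Esrrg, a nuclear receptor of mature β-cells, by 0.31 (SE 0.10, adjusted p = 0.219). Glucose sensing and insulin release had 18 of 24 genes lower and a median of -0.07, namely -0.12 in WT and 0.01 in KO. Adcy5, an adenylyl cyclase, differed by -0.54 (SE 0.12, adjusted p = 0.112), and Syt7, the calcium sensor of granule exocytosis, by -0.23 (SE 0.05, adjusted p = 0.117) with no overlap between diets. Dense-core granule proteins were lower in 11 of 21 genes, with a median of -0.02. Genes that are silenced in mature β-cells or return when they dedifferentiate were lower in 16 of 21 with a median of -0.11, and 7 had an unadjusted p below 0.05 downwards, against 7.95% of all genes. Of these Igfbp4, a binding protein of insulin-like growth factors, differed by -0.70 (SE 0.21, adjusted p = 0.182). Maf, a transcription factor of the same list, differed the other way, by 0.60 (SE 0.17, adjusted p = 0.173). The mean deviation of this list overlapped between the diets, at -0.22 to 0.37 on the normal and -0.18 to 0.06 on the high-fat diet. It was highest on WT normal array 3, the array that was also highest for the stromal and Schwann cell markers.

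Of the signalling lists, the serotonin and prolactin receptor axis, which drives β-cell growth in pregnancy, was lower in 14 of 17 genes, with a median of -0.13 and 6 genes with an unadjusted p below 0.05 downwards, against 7.95% of all genes. Stat5b, its transcription factor, differed by -0.20 (SE 0.07, adjusted p = 0.239). Insulin and IGF signalling was lower in 17 of 24 genes with a median of -0.05. Igfbp5 differed by -0.52 (SE 0.13, adjusted p = 0.134) and Igf1, the growth factor itself, by -0.64 (SE 0.20, adjusted p = 0.2). The sphingolipid genes, the pathway of Sgpp2, were higher in 14 of 32 with a median of -0.02. S1pr3, a receptor of sphingosine-1-phosphate, differed by -0.49 (SE 0.18, adjusted p = 0.272). Sgpp2 itself read between 11.00 and 11.63 on the normal diet and between 11.02 and 11.57 on the high-fat diet, a difference of -0.02 (SE 0.05, adjusted p = 0.906).

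Inflammation genes were higher in 14 of 18 with a median of 0.04, and 0 of them had an unadjusted p below 0.05. In WT 13 of the 18 were higher (median 0.10) and in KO 9 (median 0.004). Interferon and antigen presentation genes were higher in 20 of 27 with a median of 0.09, and Rsad2, an antiviral enzyme, differed by 0.34 (SE 0.12, adjusted p = 0.257). In WT 14 of the 27 were higher (median 0.01) and in KO 22 (median 0.15). In the hypoxia list, with a median of -0.02 over 16 genes, Slc2a1, the glucose transporter GLUT1, read 12.18, 12.35 and 12.43 against 11.90, 12.05 and 12.28 (-0.27, SE 0.06, adjusted p = 0.0997). Oxidative phosphorylation was lower in 23 of 31 genes by small amounts, with a median of -0.02, and its member with the smallest p, Uqcrb of complex III, differed by -0.15 (SE 0.05, adjusted p = 0.243). The medians of the other lists were -0.03 for glycolysis and the TCA cycle (30 genes), 0.01 for antioxidant genes (26 genes, with the glutathione peroxidase Gpx2 at 0.46, SE 0.12, adjusted p = 0.156), 0.02 for the circadian clock (20 genes, with the repressor Cry2 at 0.38, SE 0.12, adjusted p = 0.216) and -0.04 for immediate early genes (21 genes). In the last list 18 of 21 genes were lower, Egr4 by -0.27 (SE 0.09, adjusted p = 0.239).

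The lists of cell type markers held 128 measured genes, of which 0 were past the threshold and 16 had an unadjusted p below 0.05, where 13.4% of all genes did. Among the endocrine markers the medians were -0.01 for β-cells (8 genes), -0.02 for α-cells (7), 0.04 for δ-cells (6) and -0.05 for PP-cells (5). The lowest medians were those of Schwann cells, the glia of peripheral nerves, and of stromal cells. All 6 measured Schwann markers were lower on the high-fat diet, with a median of -0.36. Sox10, their master regulator, differed by -0.62 (SE 0.20, adjusted p = 0.214) and the neurotrophin receptor gene Ngfr by -0.45 (SE 0.14, adjusted p = 0.216). The mean deviation of the Schwann list was 0.80 on WT normal array 3 and between -0.17 and 0.26 on the other normal-diet arrays, against -0.36 to -0.03 on the high-fat diet, and without WT normal array 3 the median was -0.22. All 17 stromal markers were lower, with a median of -0.25 that became -0.14 without the same array, and Thy1 differed by -0.98 (SE 0.30, adjusted p = 0.194). The stromal median was -0.38 in WT and -0.07 in KO, where 2 of the 17 were higher, and the mean deviation of the list overlapped between the diets, at -0.20 to 0.60 on the normal and -0.44 to 0.25 on the high-fat diet. The part of the Schwann and stromal values in the other results was not tested.

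Of 8 ductal markers 5 were lower, with a median of -0.06, led by the mucin gene Muc1 (-0.79, SE 0.22, adjusted p = 0.159) and the trefoil factor gene Tff2 (-0.60, SE 0.16, adjusted p = 0.159). Endothelial markers were higher in 10 of 14 with a median of 0.05, and Pecam1, the adhesion molecule CD31, differed by 0.43 (SE 0.11, adjusted p = 0.153). Among acinar markers Cela2a, an elastase, had the smallest p, with a difference of -0.22 (SE 0.09, adjusted p = 0.347). The 5 B-cell markers were split, with Ms4a1 at 0.59 (SE 0.14, adjusted p = 0.122) and Cd79a at -0.74 (SE 0.23, adjusted p = 0.194). Macrophage (12 genes) and T and NK cell (10 genes) medians were -0.06 and 0.05. Lists with few measured genes had medians of 0.07 for fat cells (3 genes), 0.06 for liver (5), -0.09 for muscle (4), 0.07 for red blood cells (2) and -0.07 for sex-linked genes (4).

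**Figure D5:**
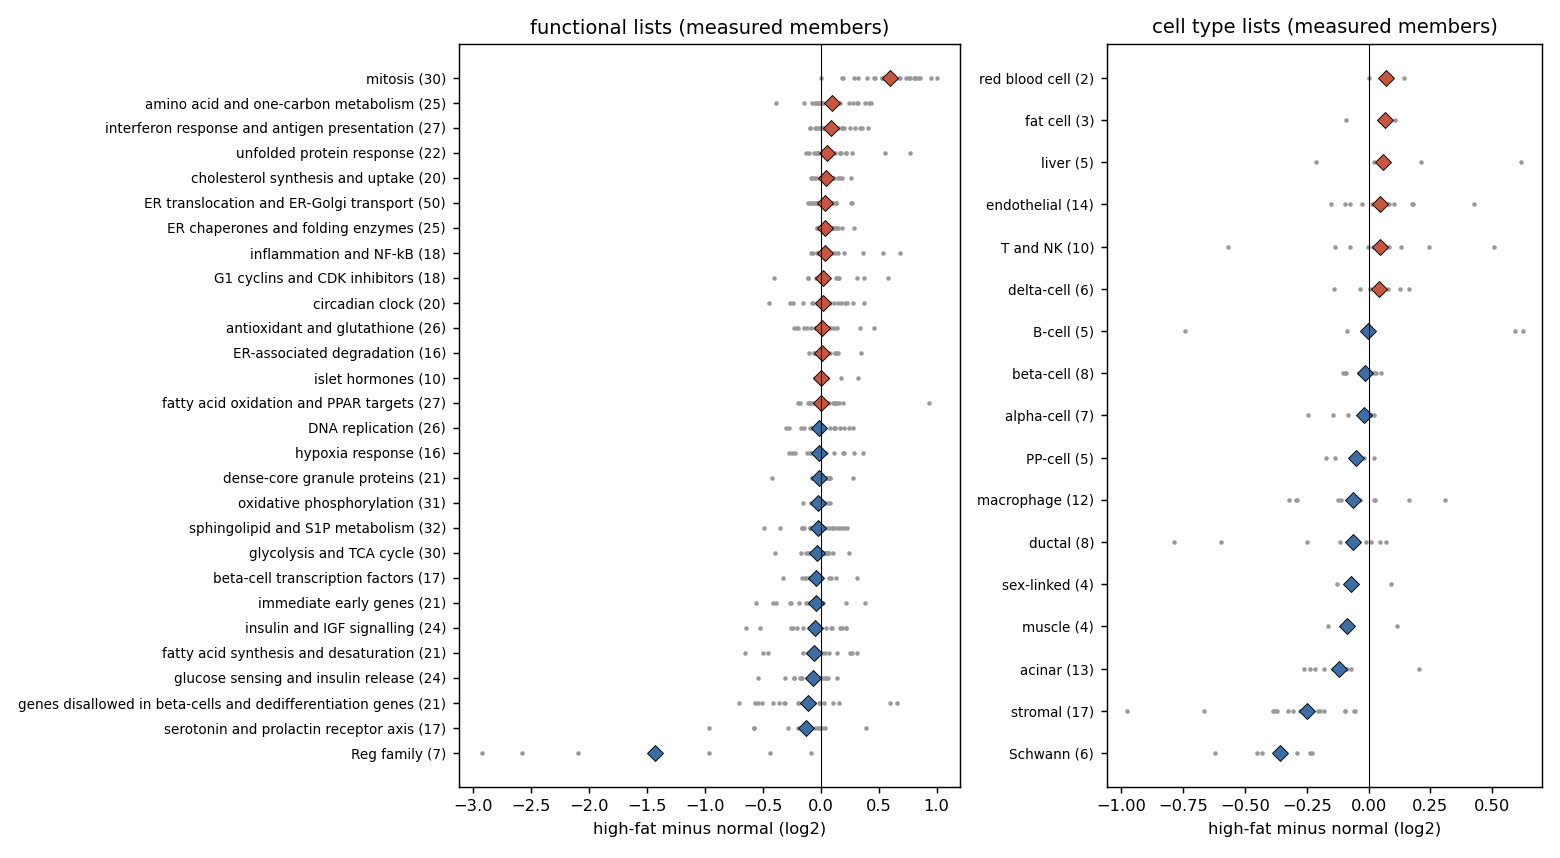
High-fat minus normal diet (horizontal axes, log2) for each measured gene (grey points) of the functional lists (left) and the cell type lists (right), with the list's median as a diamond (red above 0, blue below) and the number of measured genes in parentheses. The mitosis list lies highest with a median of 0.60 and the Reg family lowest with -1.43; the Schwann and stromal lists lie lowest among the cell types.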

How the data were processed

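Total RNA was extracted with Trizol and 4 µg per sample were biotin-labelled, per the labels' protocols. The authors deposited 1 log2 RMA value per probe set and array, per the submitters' processing notes, which name RMA and Partek 6.6; the steps and options are not stated in the labels. RMA equalises the arrays' distributions and hides a shift shared by most genes. Of 45101 probe sets, 34945 carried 1 gene symbol in the platform annotation, 932 several and 9160 none listed; 64 were controls. Each of 18193 genes took its probe set with the highest mean, and 2956 genes were dropped because fewer than 3 arrays exceeded a log2 value of 5. Per array 75.9% to 77.3% of probe sets lay above 5, and 12 arrays limit the precision: the median SE of the diet difference was 0.0855.

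Limma 3.58.1 (R 4.3.3) fitted genotype and diet over the 12 arrays (9 residual degrees of freedom), two-sided, with Benjamini-Hochberg adjustment over 15237 genes. Diet within a genotype and the interaction came from a fit with 1 coefficient per group. Tested on simulated data with 100 genes changed by 0.5 and 100 by 1 on the log2 scale, the diet fit recovered 76% and 97% of them, with 6 false calls. The simulated noise was independent between genes and between arrays. It lacked the deviations that genes share on single real arrays, so these shares and false calls may not hold for the real data. No label says whether replicates are separate animals; the p-values cover only the spread among these arrays, which may be technical. KO arrays with the same number shared deviations from their group means (r = 0.288, 0.383 and 0.138, each above 0.1) and were treated as pairs in blocked fits. WT arrays with the same number did not (0.052, 0.099 and -0.156). Arrays with different numbers reached 0.103 in KO and 0.189 in WT, the latter above the lowest same-numbered KO value. Correlations of deviations from a group mean depend on each other, and no label names pairs. The pairing rests on these values.

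Members and gene lists were chosen with earlier results of these data known. Named genes are the 10 largest rises and 10 largest falls among genes past the threshold without overlap within a genotype, made up by smallest p, the 10 smallest p, and up to 5 (functional) or 3 (cell type) members per list, called first and then by p. Promoter sequences came from a RefSeq table. Figures used matplotlib 3.10.9 in Python 3.11.15.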

Additional observations from a re-analysis of the deposited data

Results flagged for a closer look

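In 274 sets of 6 arrays (a gene or a list mean on 1 diet), 22 held an array whose gap to its nearest neighbour exceeded 0.625 of the range, Dixon's critical value for 6 samples. That value marks about 1 set in 20 where all 6 values come from 1 normal distribution. Each set here mixed 3 WT and 3 KO arrays, and genes recur in the list means, so the rate may not hold. Of the 22, 11 were WT normal array 1 or KO high-fat array 3 in genes or lists of the cell cycle. WT normal array 1 was the highest normal-diet array for Cdca8 (9.45, next 8.65), Cenpe (6.68, next 6.18) and Tpx2 (8.93, next 8.21) and for the list means of mitosis (0.45, next -0.35), DNA replication (0.46, next -0.07) and G1 cyclins and CDK inhibitors (0.15, next -0.05). It was the lowest for Reg4 (4.66, next 5.03). KO high-fat array 3 was the highest high-fat array for Cdca8 (10.16, next 9.39), Tpx2 (10.64, next 9.26), Aspm (8.95, next 7.67), Cep55 (8.87, next 7.14), Grp (9.15, next 5.43) and the mitosis mean (1.24, next 0.37), and the lowest for the β-cell mean (-0.21, next -0.02) and the ductal mean (-0.33, next -0.12).

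KO normal array 3 was the lowest normal-diet array for Orly (8.46, next 9.18) and Pramel34 (4.59, next 4.85). WT normal array 3 was the highest for Psph (9.75, next 9.52) and WT normal array 2 for Cd79a (9.24, next 8.72). WT high-fat array 2 was the lowest for Tff2 (11.38, next 11.94) and Slc15a2 (7.1, next 9.82), and WT high-fat array 1 for the mean of the sex-linked genes (-0.30, next -0.03).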

How the results depend on the processing

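The 23 genes past the threshold became 43 with trend and robust variance, 0 with the replicate number as a fixed block (overall or within genotype), 99 with it as a random block within genotype, and 96 with the KO pairs alone as a random block. Fitted alone, the WT arrays gave 1 gene and the KO arrays 0, and 0 passed without WT high-fat array 2 and KO high-fat array 3. With 1 array left out in turn, between 1 and 78 passed. Median centring gave 31, 15 of them higher and 16 lower. Cyclic loess (24), no filter (24), a filter at 6 (18), the mean of probe sets (18), array weights (19), 1 coefficient per group (30) and the fixed block of the KO pairs (19) stayed within 1.5 times the count; of the 23, between 13 and 23 passed in these. The blocks of the KO pairs and the omission of both arrays were chosen after seeing the data. The random block of the KO pairs also moved the differences themselves: the mitosis median was 0.69 in it, against 0.60 in the main fit. For the diet in WT, 12 genes became 19 with cyclic loess, 24 with trend and robust variance, 0 with either fixed block, 88 with the random block within genotype, 5 with the random block of the KO pairs and 0 without both arrays, and between 0 and 11 with 1 array left out. For the diet in KO, 0 genes became 10 with the random block of the KO pairs, and 0 passed in the other fits. The interaction kept 0 in every fit run. Of the functional list genes, 0 became 2 with median centring, 1 with the mean of probe sets, 1 with 1 coefficient per group, 7 with trend and robust variance, 9 and 10 with the random blocks (within genotype and KO pairs), and between 0 and 4 with 1 array left out. Among the named genes the sign changed for Reg4 in WT alone (0.03) and for Sgpp2 in KO alone (0.02) and without both arrays (0.00). The causes were not tested. Dim probe sets, with 6 of the 23 genes below a mean of 6, and 6 arrays per diet are the limits.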

Other observations

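Whatever their p, 33 genes differed by more than 2-fold between the diets, 8 higher and 25 lower, and 3 of them passed the threshold. Apart from the Reg genes, the 25 included Vip, Tac1, Grp, Cartpt, Prph and Nefl, which are known from neurons; these 6 were chosen after their values had been seen and are given as values only. Vip, vasoactive intestinal peptide of autonomic nerve fibres, read 11.22, 11.74 and 12.98 on the normal diet and 8.06, 9.99 and 10.72 on the high-fat diet, with no overlap (-2.29, SE 0.46, adjusted p = 0.078). Tac1, the precursor of substance P, read 9.26, 9.84 and 11.76 against 6.38, 8.00 and 8.70, again with no overlap (-2.55, SE 0.52, adjusted p = 0.078). With the KO pairs as a random block Vip had an adjusted p of 0.0411 and Tac1 of 0.0436, and with the pairs as a fixed block both had 0.0747. With the mean of probe sets the difference of Tac1 was -1.26. Grp, gastrin-releasing peptide, differed by -2.97 (SE 0.85, adjusted p = 0.175), with KO high-fat array 3 at 9.15 amid high-fat values otherwise between 4.16 and 5.43. The neuropeptide gene Cartpt differed by -1.53 (SE 0.49, adjusted p = 0.212), and the neuronal intermediate filament genes Prph and Nefl by -1.42 (SE 0.41, adjusted p = 0.177) and -1.22 (SE 0.51, adjusted p = 0.329). WT normal array 3 held the highest value in 20 of the 25 genes, the array on which the Schwann list was also highest, and the lowest value fell on WT high-fat array 3 in 8 and on KO high-fat array 2 in 8. When any 1 array was left out, the difference of Vip stayed between -2.50 and -1.94, that of Tac1 between -2.79 and -2.23 and that of Prph between -1.63 and -1.13.

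Among the 8 genes that were more than 2-fold higher, Ccl3, a chemokine of activated macrophages, differed by 1.14 (SE 0.30, adjusted p = 0.149), while the median of the 12 macrophage markers was -0.06. Slc15a2, a peptide transporter, had the largest difference, 1.64, with an SE of 0.70 (adjusted p = 0.337). Normal-diet values ran from 6.28 to 9.29 and high-fat values from 7.1 to 10.56, with WT high-fat array 2 lowest. Aspm and Cep55, mitotic genes outside the list, differed by 1.05 (SE 0.29, adjusted p = 0.168) and 1.04 (SE 0.34, adjusted p = 0.216).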
